A study of Mus musculus with 24 samples.

Results

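A set of 9 genes that define or serve the T helper 2 (Th2) fate were followed through early T cell activation: the transcription factor genes Gata3, Maf, Nfil3 and Bhlhe41, the receptor gene Il4ra and the cytokine genes Il4, Il5, Il13 and Il10. They were named by symbol, and all 9 were found among the 22009 named genes of the expression table. CD4+ T cells came from the spleens of adult wild-type C57BL/6 mice, taken by negative magnetic selection, and the material was pooled over mice. The 24 libraries comprised 2 of resting cells, 18 of cultures and 4 of cells exposed to actinomycin, and each culture was sequenced once per time point.

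The Th0 cultures received 5 µg/ml plate-bound anti-CD3 and 1 µg/ml anti-CD28. The Th1 cultures received the same stimulus with 5 µg/ml anti-IL-4 and 10 ng/ml IL-12. The Th2 cultures received it with 5 µg/ml anti-IL-12, 5 µg/ml anti-IFN-γ and 20 ng/ml IL-4, and all 3 cultures were sampled at 4, 8, 12, 16, 20 and 24 h. Cells of the last 4 libraries had 16 h of stimulation before actinomycin, an inhibitor of transcription, was added for 0, 1, 2 or 4 h. Their skewing condition is not given in the labels. The labels describe purified CD4+ cells whereas the methods describe naive cells, so memory cells cannot be set aside. Resting and cultured libraries also bear different tags in their titles, so preparation and activation cannot be told apart there.

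IL-4 binds a receptor whose specific chain is the product of Il4ra, and the receptor activates the transcription factor STAT6. STAT6 raises Gata3, and GATA3 opens the cytokine cluster that holds Il4, Il13 and Il5. Maf is a direct activator of Il4, Nfil3 encodes a basic leucine zipper factor known for roles in cytokine expression of T helper cells, and Bhlhe41 encodes a helix-loop-helix repressor described in Th2 cells. IL-4 directs the fate and antibody class switching, IL-5 serves eosinophils, IL-13 acts on epithelium and mucus, and IL-10 restrains inflammation and is made by several T cell types.

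The libraries held 17512385 to 33017133 mapped reads in the time course, as recovered from the steps of the expression values, and 18052931 to 25735543 after actinomycin. Values are RPKM, which scale the reads of a gene by transcript length and by the mapped reads of the library, and are relative to all other transcripts of a library. In such bulk samples, fewer cells of a type and less RNA per cell cannot be told apart. The T cell markers were high throughout, with a summed level of 1147 to 1859 RPKM over 7 genes in the time course. The sum of 9 macrophage and monocyte genes was 478 to 500 RPKM (n = 2), 44.1 to 75.4 RPKM at 4 h and 7.76 to 12.3 RPKM at 24 h. A list of 7 B cell genes summed to 71.3 to 81.5 RPKM at rest and 9.98 to 19.0 RPKM at 24 h, and 7 mast cell and basophil genes to 17.5 to 19.0 RPKM at rest and 4.52 to 6.34 RPKM at 24 h. The 5 innate lymphoid cell and NK genes summed to 47.5 to 50.8 RPKM at rest, 29.7 to 38.5 RPKM at 4 h and 5.41 to 8.30 RPKM at 24 h. The 4 dendritic cell genes summed to 5.98 to 7.98 RPKM at rest, 6.16 to 7.60 RPKM at 4 h and 2.89 to 3.89 RPKM at 24 h. In the lists that follow, the highest sum at 4 h lay above the highest at rest. The 3 eosinophil genes summed to 17.5 to 21.9 RPKM at rest and 17.9 to 28.5 RPKM at 4 h, the 2 CD8 genes to 12.4 to 12.7 and 11.6 to 15.7 RPKM, the 3 regulatory T cell genes to 71.4 to 71.5 and 141 to 240 RPKM, and the 4 red cell genes to 23413 to 25519 and 17415 to 28397 RPKM. At 24 h the eosinophil genes summed to 0.643 to 1.89 RPKM and the red cell genes to 85.9 to 125 RPKM. The CD8 genes then summed to 7.44 to 11.9 RPKM and the regulatory T cell genes to 201 to 237 RPKM. None of the genes of these lists was at 0 in all libraries.

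Il4, Il13 and Il5 lie together on mouse chromosome 11 (GRCm38, GENCODE M21 annotation). Il4 spans bases 53602982 to 53618669 on the minus strand, Il13 bases 53631324 to 53634702 on the minus strand and Il5 bases 53720794 to 53725106 on the plus strand. Between Il4 and Il13 lie 12654 bases, and the DNA repair gene Rad50 (bases 53649519 to 53707319) separates Il13 from Il5. Of the other members, Gata3 lies on chromosome 2 (9857078 to 9890034), Il10 on chromosome 1 (131019845 to 131024974), Il4ra on chromosome 7 (125552120 to 125579474), Maf on chromosome 8 (115682942 to 115707794), Nfil3 on chromosome 13 (52967209 to 52981073) and Bhlhe41 on chromosome 6 (145858243 to 145865558).

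The promoter windows of the 3 clustered cytokine genes are printed here because these genes lie in 1 locus and their courses over time are set side by side in what follows. Each holds 250 bases before and 50 after the start site (RefSeq, GRCm38.p6), 5′ to 3′ along the gene. Capitals mark matches on either strand to the STAT6 motif (TTCNNNNGAA) or the GATA motif (AGATAA).
Il4, chr11:53618616-53618915, minus strand: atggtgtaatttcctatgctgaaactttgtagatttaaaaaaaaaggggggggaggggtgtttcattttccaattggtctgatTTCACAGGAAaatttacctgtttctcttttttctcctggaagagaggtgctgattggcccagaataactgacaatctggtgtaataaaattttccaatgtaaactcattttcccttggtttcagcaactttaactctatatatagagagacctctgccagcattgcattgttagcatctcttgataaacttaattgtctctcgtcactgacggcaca
Il13, chr11:53634653-53634952, minus strand: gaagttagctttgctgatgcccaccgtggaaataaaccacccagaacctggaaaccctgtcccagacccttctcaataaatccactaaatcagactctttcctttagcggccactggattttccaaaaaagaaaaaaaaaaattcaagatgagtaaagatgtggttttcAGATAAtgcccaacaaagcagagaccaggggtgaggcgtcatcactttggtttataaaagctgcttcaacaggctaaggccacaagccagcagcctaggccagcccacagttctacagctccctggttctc
Il5, chr11:53720544-53720843, plus strand: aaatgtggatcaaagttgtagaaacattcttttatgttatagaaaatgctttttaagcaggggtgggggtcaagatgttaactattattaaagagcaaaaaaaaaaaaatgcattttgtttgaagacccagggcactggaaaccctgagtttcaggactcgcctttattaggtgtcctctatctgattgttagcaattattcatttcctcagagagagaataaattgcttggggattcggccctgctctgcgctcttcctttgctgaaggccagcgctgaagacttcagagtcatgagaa

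The Il4 window held 1 match to the STAT6 motif, with its first base at -167 from the start site, and the Il13 window held 1 match to the GATA motif, with its first base at -81. The Il5 window held neither of these exact strings of letters, and variants of them were not searched in any window. The STAT6 motif was found in 6.95% and the GATA motif in 11.2% of all 32851 windows of this length. The NFAT core (GGAAA, either strand), the letters of the factor that T cell receptor signals activate, occurred 5 times in the Il4 window, 4 times in the Il13 window and 2 times in the Il5 window, against a mean of 1.01 over all windows. The match at -161 in Il4 overlaps the STAT6 match. In all, 7 members had a window in the table. The windows of Gata3 and Il4ra held 2 NFAT cores each and neither other motif, those of Nfil3 and Bhlhe41 held none of the 3, and Il10 and Maf had no entry. A match is a description of letters and not of binding.

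Gata3 was highest in the Th2 culture and lowest in the Th1 culture at all 6 time points. The resting libraries had 26.3 and 25.5 RPKM. The Th2 culture had 34.4, 24.7, 18.8, 21.8, 34.4 and 31.1 RPKM from 4 to 24 h, so the level dipped at 12 h and returned to its early value by 20 h. The Th0 culture had 30.6, 16.7, 14.9, 18.1, 14.7 and 11.2 RPKM, and the Th1 culture 11.0, 8.18, 8.40, 8.14, 8.59 and 7.21 RPKM. The Th1 values lay below every Th0, Th2 and resting value, whereas the Th2 and Th0 ranges overlapped. Over the 6 time points, limma gave a log2 difference of 1.60 ± 0.14 (SE) between Th2 and Th1 (adjusted p = 1.24e-06), which is a 3.03-fold higher level. The difference between Th2 and Th0 was 0.66 ± 0.14 (limma, adjusted p = 0.0036) and that between Th1 and Th0 -0.94 ± 0.14 (limma, adjusted p = 0.00153). Both passed the adjusted threshold and stayed under 2-fold. The last was -1.01 once the 24 h time point was left out, and was then called.

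Nfil3 separated the Th2 culture from both others with the least spread of the members tested. In Th2 it had 15.6, 13.8, 12.2, 15.7, 15.7 and 15.5 RPKM. The Th0 culture had 6.66 to 8.71 RPKM (median 6.88) and the Th1 culture 6.03 to 7.19 RPKM (median 6.17), and the resting libraries had 6.54 and 7.15 RPKM. The Th2 range did not overlap any other range of the time course. At single time points the ratio of Th2 to Th0 ran from 1.70 (exact 95% counting interval 1.50 to 1.94) at 8 h to 2.32 (2.05 to 2.63) at 24 h, and intervals and limits of this kind cover counting error only. The log2 difference was 1.13 ± 0.08 between Th2 and Th1 (limma, adjusted p = 6.82e-08). Between Th2 and Th0 it was 0.96 ± 0.08 (limma, adjusted p = 4.33e-07), just under the 2-fold limit, and it passed the limit under 5 of 16 alternative settings.

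Maf followed another course. It stood at 15.8 and 16.8 RPKM at rest, above every culture, and at 4 h had 5.96 (Th0), 6.81 (Th1) and 6.43 RPKM (Th2). By 24 h it had 2.80, 2.97 and 1.76 RPKM in the same order. The Th1 culture had the highest of the 3 values at all 6 time points. The Th2 level was below the Th1 level by 0.44 ± 0.10 on the log2 scale (limma, difference -0.44, adjusted p = 0.00864), under 2-fold, with a median Th2 to Th1 ratio of 0.672. The macrophage and monocyte markers given above were lower in the cultures than at rest too, and their part in the Maf difference was not tested.

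Bhlhe41 had low levels, and its whole reads were not recovered, so its distance from the floor of detection is not known. It had 0.707 and 0.618 RPKM at rest, up to 1.04 RPKM in the 4 h Th1 culture and 0.0295 to 0.0765 RPKM at 24 h. The mean over the cultures was under 1 RPKM, so the gene had no value in the fits across genes. An exact permutation test that swapped the cultures within time points gave p = 0.156 between Th2 and Th0, p = 0.969 between Th2 and Th1 and p = 0.406 between Th1 and Th0 (two-sided, 64 patterns, smallest possible p = 0.0312).

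**Figure D1:**
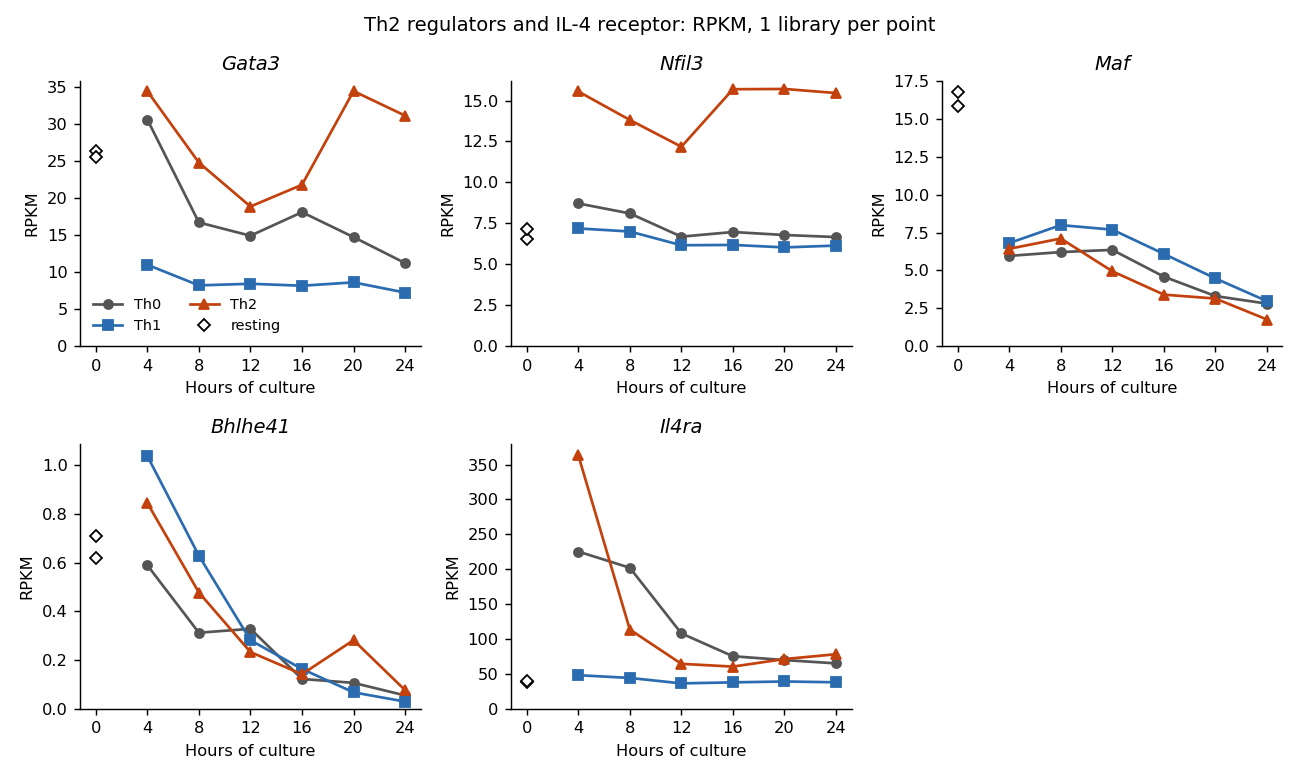
RPKM (vertical axis, linear, from 0) against hours of culture for Gata3, Nfil3, Maf, Bhlhe41 and Il4ra in Th0, Th1 and Th2 cultures, 1 library per point, with the 2 resting libraries as open diamonds at 0 h. The Th2 points of Nfil3 lie at 12.2 to 15.7 RPKM, above all Th0, Th1 and resting points, while Il4ra in Th2 starts at 363 RPKM and lies at 60.4 to 114 RPKM from 8 h on.

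The receptor gene Il4ra had the highest level of the members. It had 39.0 and 40.1 RPKM at rest. In Th2 it had 363 RPKM at 4 h and then 114, 64.4, 60.4, 71.3 and 78.1 RPKM. The Th0 culture had 225, 202, 108, 75.3, 69.8 and 65.1 RPKM, and the Th1 culture stayed between 36.4 and 48.1 RPKM. The early peak was present in Th2 and Th0 and not seen in Th1, whose range overlapped the resting values and neither other culture. The Th2 to Th1 ratio was 7.55 at 4 h (exact 95% interval 7.34 to 7.77) and 1.60 to 2.57 later. The Th2 to Th0 ratio went from 1.61 at 4 h to 0.562 at 8 h and 1.20 at 24 h. The log2 difference was 1.27 ± 0.23 between Th2 and Th1 (limma, adjusted p = 0.0015), -1.42 ± 0.23 for Th1 against Th0 (limma, adjusted p = 0.00304) and -0.15 ± 0.23 for Th2 against Th0 (limma, adjusted p = 0.66). Without the 4 h time point the first of these was 0.94, under 2-fold.

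Il4 was not highest in the Th2 culture beyond the first time point. In Th2 it had 47.4 RPKM at 4 h, the highest value of the time course, and then 22.8, 11.7, 6.97, 8.02 and 11.4 RPKM. The Th1 culture, which held anti-IL-4, had 25.9, 23.1, 24.3, 27.9, 19.7 and 12.7 RPKM, and the Th0 culture 18.7, 9.39, 13.3, 10.0, 7.53 and 13.5 RPKM. Resting cells had 3.32 and 2.81 RPKM, below all cultures. Mast cells and basophils also make IL-4 and IL-13. Their markers summed to 17.5 to 19.0 RPKM at rest, 4.52 to 15.8 RPKM in the cultures and 15.5 to 23.1 RPKM in the actinomycin libraries. The part of these cells was not tested. The Th1 culture was highest at 4 of 6 time points. The log2 difference was 0.29 ± 0.27 for Th2 against Th0 (limma, adjusted p = 0.442), -0.58 ± 0.27 for Th2 against Th1 (limma, adjusted p = 0.191) and 0.87 ± 0.27 for Th1 against Th0 (limma, adjusted p = 0.123), and none passed. From 12 to 24 h alone, Th2 was lower than Th1 with a difference of -1.09 (limma, adjusted p = 0.0039).

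Il13 was lowest in the Th0 culture at all 6 time points. At 16 h the Th2 to Th0 and Th1 to Th0 ratios lay within counting error (exact 95% intervals 0.864 to 1.17 and 0.942 to 1.25). The Th2 culture had 12.8, 18.1, 11.1, 11.8, 10.3 and 9.83 RPKM, the Th1 culture 7.73, 12.1, 12.8, 12.8, 13.2 and 10.3 RPKM and the Th0 culture 3.95, 5.40, 8.47, 11.8, 7.39 and 7.89 RPKM. Resting cells had 0.168 and 0.529 RPKM, which is 4 and 15 reads. Th2 exceeded Th0 by 3.25 times at 4 h (exact 95% interval 2.62 to 4.06) and 3.35 times at 8 h (2.79 to 4.04), and by 1.01 to 1.39 times later. The log2 difference of 0.73 ± 0.18 between Th2 and Th0 passed the adjusted threshold but not 2-fold (limma, adjusted p = 0.00782), and from 12 to 24 h alone it was 0.28. Th2 and Th1 gave 0.09 ± 0.18 (limma, adjusted p = 0.797) and Th1 and Th0 0.64 ± 0.18 (limma, adjusted p = 0.0867).

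Il5 was scarce. No read was seen in the resting libraries, which allows up to 0.0988 and 0.0829 RPKM (3 reads per library). In Th2 it had 2.42, 2.00, 1.67, 1.13, 0.485 and 0.788 RPKM, which is 23 to 73 reads. The Th0 culture had 0.359 to 1.26 RPKM (median 0.944) and the Th1 culture 0.541 to 1.23 RPKM (median 1.00). Th2 was highest at 4, 8, 12 and 16 h and Th0 at 20 and 24 h. Some of these ranks lay within counting error. The exact 95% interval of Th2 to Th1 held 1 at 12 and 16 h (0.925 to 2.08 and 0.860 to 2.10). That of Th2 to Th0 held 1 at 16 and 24 h (0.748 to 1.92 and 0.417 to 1.09), and that of Th1 to Th0 at 20 h (0.435 to 1.26). The ratio of Th2 to Th0 was 5.58 at 8 h (exact 95% interval 3.08 to 10.8) and 0.516 at 20 h (0.288 to 0.915). Over the 6 time points the difference was 0.43 ± 0.23 against Th0 (limma, adjusted p = 0.166) and 0.33 ± 0.23 against Th1 (limma, adjusted p = 0.382).

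Il10 was highest in the Th1 culture at 4 of 6 time points. At 12 h the Th1 to Th0 ratio lay within counting error (1.20, exact 95% interval 0.9997 to 1.44). The Th1 culture had 3.63, 6.77, 6.45, 8.52, 8.66 and 6.29 RPKM. The Th2 culture had 5.91, 4.63, 4.36, 4.35, 4.48 and 7.55 RPKM, and the Th0 culture 2.16 to 6.23 RPKM (median 4.91). Resting cells had 2.86 and 2.98 RPKM. The Th2 to Th1 ratio was 1.63 at 4 h (exact 95% interval 1.26 to 2.11) and 0.510 at 16 h (0.417 to 0.620). None of the 3 differences passed (limma, adjusted p = 0.404 between Th2 and Th0, 0.329 between Th2 and Th1 and 0.181 between Th1 and Th0). The regulatory T cell markers, which mark another source of IL-10, summed to 71.4 to 71.5 RPKM over 3 genes at rest and 141 to 240 RPKM in the cultures. These genes did not move alike. Tnfrsf18 had a mean of 43.9 RPKM at rest and 182 to 200 RPKM at 24 h. Ikzf4 had 4.93 RPKM at rest and 8.83 to 12.3 RPKM at 24 h. Foxp3 had 22.7 RPKM at rest and 20.7 (Th0), 24.8 (Th1) and 9.47 RPKM (Th2) at 24 h. The part of such cells was not tested.

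**Figure D2:**
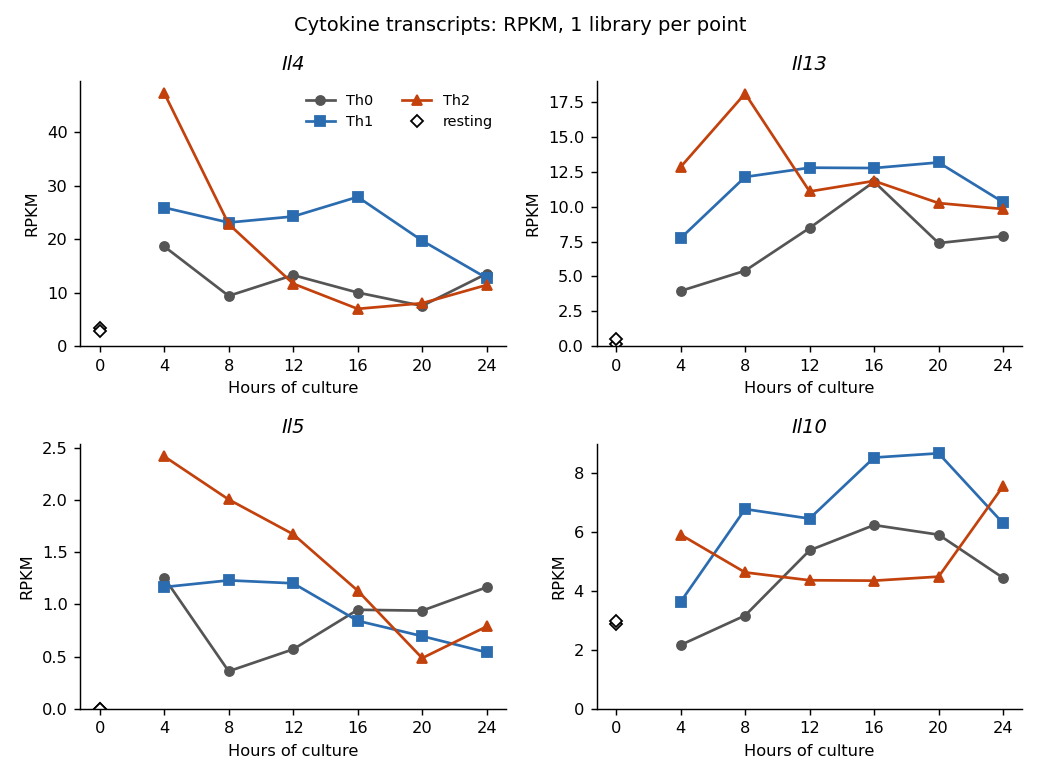
RPKM (vertical axis, linear, from 0) against hours of culture for Il4, Il13, Il5 and Il10 in Th0, Th1 and Th2 cultures, 1 library per point, with the 2 resting libraries as open diamonds at 0 h. Il4 in Th2 starts at 47.4 RPKM and ends at 11.4 RPKM, and the Th1 points of Il4 lie above the Th2 points from 8 h on.

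Of the 9 members, 8 were tested between cultures. The 3 comparisons share libraries, so their values are not independent. A gene was called at an adjusted p under 0.05 and at least 2-fold. For Th2 against Th0, 0 of 8 members were called higher and 0 lower by limma, beside 0.186% and 1.83% of 10737 genes. At an unadjusted p under 0.05 there were 3 higher and 0 lower, beside 19.4% and 21.8% of genes. The median log2 difference of the members was 0.36, against 0.0020 over all genes. For Th2 against Th1, 3 of 8 were called higher (Gata3, Il4ra and Nfil3) and 0 lower, beside 0.568% and 1.39% of genes, with a median of 0.21 against 0.015. With an unadjusted p under 0.05, 3 were higher (the same 3) and 2 lower (Il4 and Maf), beside 10.4% and 14.9% of genes. For Th1 against Th0, 0 of 8 were called higher and 1 lower (Il4ra), beside 0.177% and 0.317% of genes, with a median of 0.18 against -0.0061. By the unadjusted p alone, 4 were higher (Il4, Il10, Il13 and Maf) and 3 lower (Gata3, Il4ra and Nfil3), beside 6.19% and 10.2% of genes. The cytokine genes were thus absent from the calls between cultures, which fell on the receptor and on 2 transcription factor genes.

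**Figure D3:**
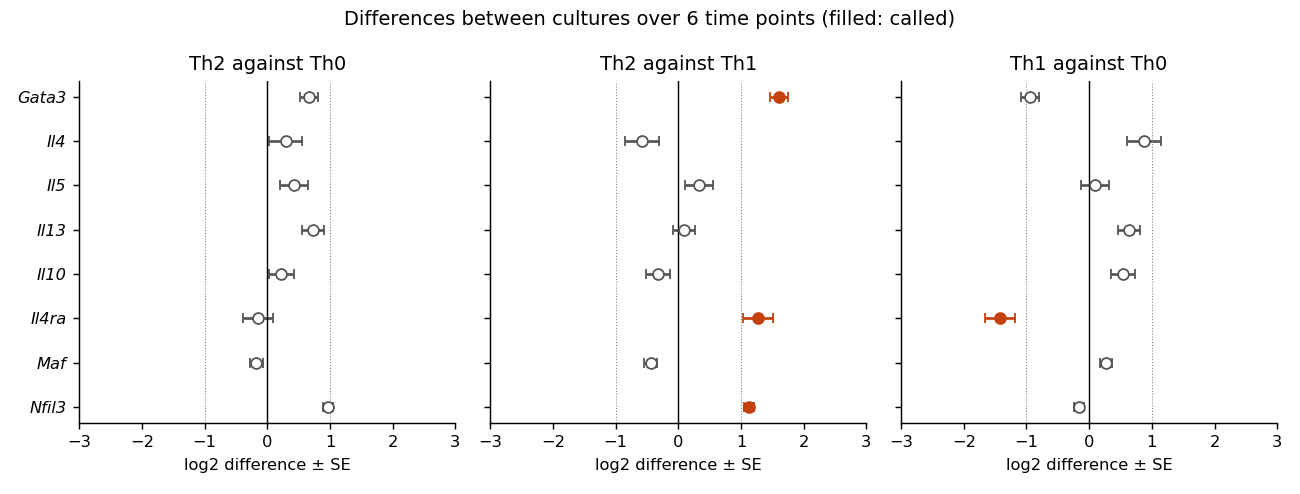
Log2 difference (horizontal axis) between cultures over 6 time points for the 8 members tested, with SE as bars. Filled points are called, and dotted lines mark 2-fold. Gata3 (1.60), Il4ra (1.27) and Nfil3 (1.13) are called higher in Th2 than in Th1, and Il4ra (-1.42) lower in Th1 than in Th0.

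The difference between Th2 and Th0 changed with time for Gata3 and Il13, in opposite directions. For Gata3 it had a slope of 0.059 ± 0.015 per hour on the log2 scale (limma, adjusted p = 0.0414). The rise was not steady, with ratios of 1.12, 1.48, 1.26 and 1.20 from 4 to 16 h, then 2.34 at 20 h and 2.78 at 24 h. For Il13 it had a slope of -0.074 ± 0.019 per hour (limma, adjusted p = 0.0384). From 12 to 24 h alone the Il13 slope was 0.0058 (limma, adjusted p = 0.904). Il5 had -0.090 ± 0.025 per hour (limma, adjusted p = 0.0515) and did not pass, but was called with pseudocount 1, with median-of-ratios scaling, with quantile normalization and with no intensity trend (adjusted p = 0.0426 to 0.0482 by limma). Il4ra, not called over all time points, had a called slope of 0.0738 without the 4 h time point (limma, adjusted p = 0.00445) and of 0.0838 from 12 to 24 h alone (limma, adjusted p = 0.0329). Gata3 and Il13 were 1 of 8 members with a positive and 1 with a negative slope, beside 1.1% and 4.05% of genes. For Th2 against Th1, 0 of 8 members had a called slope in either direction by limma, beside 0.279% and 0.81% of genes, and Il4ra and Il13 alone had an unadjusted p under 0.05, 0 with a positive and 2 with a negative slope, beside 6.19% and 12% of genes. Neither call held without every time point. That of Gata3 was lost without the 12, 20 or 24 h time point (slopes 0.0567, 0.0527 and 0.0442). That of Il13 was lost without the 4, 8, 16, 20 or 24 h time point (-0.0658, -0.0596, -0.0693, -0.0794 and -0.0980). Both were also lost with no filter, with no intensity trend and with only the 12 libraries compared (limma, adjusted p = 0.0528 to 0.14). With median-of-ratios scaling the Gata3 call was lost (limma, adjusted p = 0.051).

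Activation was set against rest with the 3 cultures of a time point as its libraries. In all, 7 members passed the filter on mean level, and Il5 and Bhlhe41 did not. At 4 h, Il13 was higher by 3.25 ± 0.42 on the log2 scale (limma, adjusted p = 2.53e-05), Il4 by 3.02 ± 0.54 (limma, adjusted p = 0.000427) and Il4ra by 1.99 ± 0.70 (limma, adjusted p = 0.0397), while Maf had -1.29 ± 0.23 (limma, adjusted p = 0.000409). These are 3 of 7 called higher and 1 lower, beside 2.61% and 7.97% of 10897 genes. The Il4ra call was lost without either resting library (adjusted p = 0.158 and 0.148 by limma), and without the Th0 or the Th2 cultures (1.73 and 1.39). At 24 h, Il13 was higher by 3.56 ± 0.42 (limma, adjusted p = 2.56e-06) and Il4 by 1.87 ± 0.54 (limma, adjusted p = 0.00597), and Maf had -2.51 ± 0.23 (limma, adjusted p = 1.27e-07), which are 2 of 7 higher and 1 lower beside 12.7% and 17.4% of genes. Il10 had 0.92 ± 0.36 (limma, adjusted p = 0.0346), under 2-fold, and 1.11 without the Th0 cultures, which was called. Gata3 and Nfil3 passed at neither time, and without the Th2 cultures Gata3 was called lower at 24 h (-1.47, limma, adjusted p = 0.0249).

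After actinomycin the members differed in how fast their levels dropped relative to other transcripts. Nfil3 had 16.0, 12.2, 6.29 and 4.54 RPKM at 0, 1, 2 and 4 h, which is 836, 521, 239 and 166 reads. Gata3 had 19.5, 17.0, 7.41 and 10.1 RPKM, Il10 5.84, 3.09, 1.43 and 2.41 RPKM, and Il13 6.22, 8.01, 3.14 and 3.26 RPKM. Only Nfil3 of these 4 fell at every step, and Gata3, Il10 and Il13 were higher at 4 h than at 2 h. The log2 slope per hour was -0.45 ± 0.07 for Nfil3 (limma, adjusted p = 3.07e-07), -0.26 ± 0.07 for Gata3 (limma, adjusted p = 0.00329), -0.27 ± 0.09 for Il10 (limma, adjusted p = 0.0238) and -0.27 ± 0.08 for Il13 (limma, adjusted p = 0.00985). With 1 library per time, these p-values rest on the spread pooled over genes. These 4 of 7 members had a called negative slope and 0 a positive slope, beside 12% and 8.95% of 10571 genes. The Nfil3 call held without each of the 4 libraries, whereas that of Gata3 was lost without the 0 h library (-0.18), that of Il13 without the 0, 1 or 4 h library (-0.33, -0.21 and -0.44) and that of Il10 without the 0 or 1 h library (-0.0435 and -0.28). The Nfil3 slope was lower than that of all but 0.492% of genes. An exact permutation over the 24 orders of the times gave p = 0.0417 for Nfil3, the smallest it can give, and p = 0.25 to 0.333 for the other 3.

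Il4, Il4ra and Maf had no called slope, and Il5 and Bhlhe41 were too low for the limma fit. By the exact permutation over the 24 orders, Il5 had a slope of -0.24 (p = 0.125) and Bhlhe41 of -0.22 (p = 0.333). Il4 had 4.01, 3.91, 2.21 and 2.15 RPKM (limma slope -0.22 ± 0.09, adjusted p = 0.067). Its slope was called with median-of-ratios scaling and with no intensity trend (limma, adjusted p = 0.0496 and 0.0478), and without the 2 h library (-0.20). Il4ra had 58.6, 51.1, 65.1 and 45.4 RPKM (limma slope -0.07 ± 0.06, adjusted p = 0.381) and Maf 6.02, 4.82, 4.19 and 4.42 RPKM (limma slope -0.09 ± 0.08, adjusted p = 0.44). Il5 had 21, 20, 6 and 2 reads, and Bhlhe41 0.541, 0.558, 0.0348 and 0.126 RPKM. The 4 h to 0 h ratio was lowest for Il5, at 0.136 (exact 95% interval 0.015 to 0.555), and was 0.234 for Bhlhe41, 0.520 for Gata3, 0.536 for Il4 and 0.733 for Maf, whose whole reads were not recovered. It was 0.283 for Nfil3 (exact 95% interval 0.238 to 0.335), 0.412 for Il10 (0.302 to 0.556), 0.524 for Il13 (0.394 to 0.692) and 0.775 for Il4ra (0.746 to 0.805).

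The pentamer ATTTA, a letter pattern of unstable cytokine messages, was counted in the 3′ UTR of the main annotated transcript. Bhlhe41 had 10 copies, Il5 and Maf 7 each, Il10 and Gata3 6, Il13 3 and Il4 2, while Nfil3 and Il4ra had 0 in 269 and 2420 bases. Per kilobase of 3′ UTR the order was another one, with 19.2 copies for Il4 (104 bases), 8.50 for Il10, 6.41 for Il5, 4.64 for Gata3, 4.05 for Il13, 2.17 for Bhlhe41 and 1.62 for Maf. At least 1 copy was present in 62.9% of 16882 genes. Of the 7 members with a fitted slope on the log2(RPKM + 0.5) scale, Nfil3 had the steepest and Il4ra the shallowest, and both had 0 copies. Over all genes the median slope was 0.031 for those without a copy (n = 3402) and -0.041 for those with 6 or more (n = 1556).

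**Figure D4:**
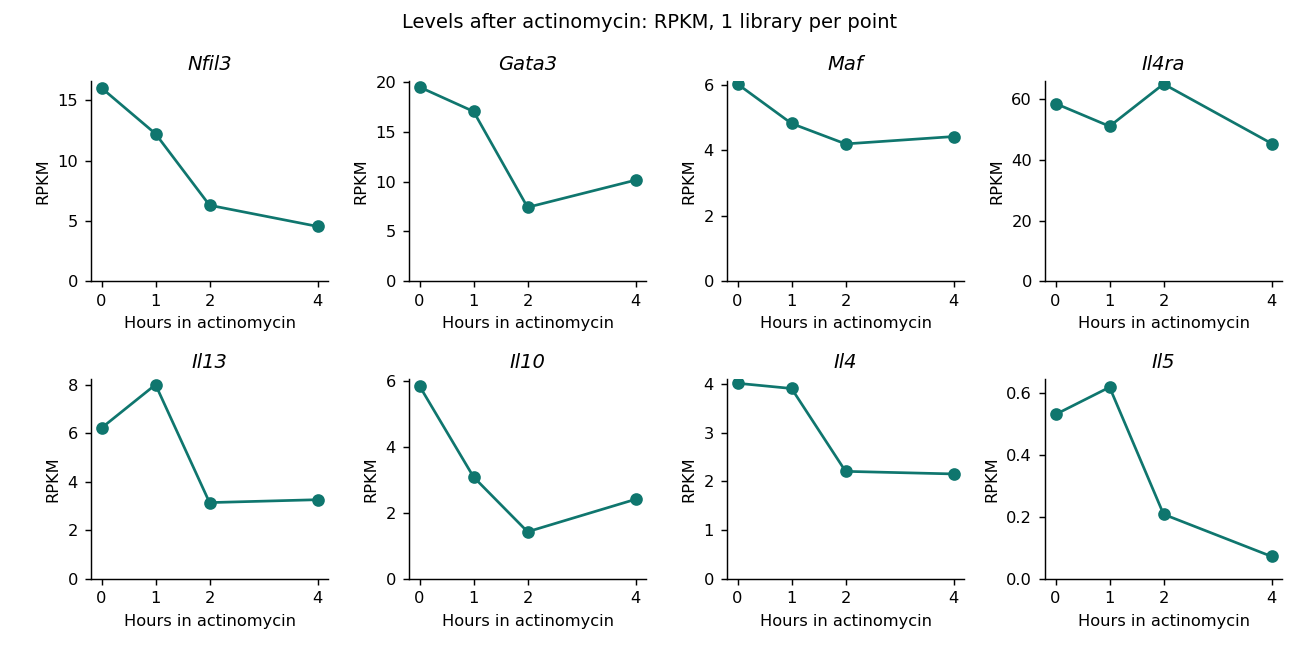
RPKM (vertical axis, linear, from 0) against hours in actinomycin for 8 members (Bhlhe41 is not drawn), 1 library per point. Nfil3 goes from 16.0 to 4.54 RPKM and Il4ra from 58.6 to 45.4 RPKM.

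Genes known to act around the members were taken as 4 lists. Over all 10737 genes tested, 0.186% were called higher and 1.83% lower for Th2 against Th0, and 0.568% and 1.39% for Th2 against Th1. The median log2 differences over all genes were 0.0020 and 0.015. Of the 19 genes of IL-4 receptor signalling, 17 were tested, 0 were called by limma for Th2 against Th0 and 2 were called higher for Th2 against Th1. At an unadjusted p under 0.05, 3 of 17 were higher and 5 lower against Th0, beside 19.4% and 21.8% of all genes. Against Th1, 5 were higher and 3 lower, beside 10.4% and 14.9% of all genes. The 2 genes called against Th1 were Cish, a feedback inhibitor induced by STAT5, with 1.17 ± 0.10 (limma, adjusted p = 1.18e-06), and Stat5a itself with 1.00 ± 0.11 (limma, adjusted p = 1.68e-05). Stat6 had -0.08 ± 0.08 against Th0 (limma, adjusted p = 0.483). Lower in Th2 than in Th0, but under 2-fold, were Stat3 with -0.75 ± 0.08 and Socs3 with -0.995 ± 0.21 (limma, adjusted p = 9.68e-06 and 0.00268). The list's median was -0.08 against Th0 and -0.07 against Th1.

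All 22 genes of partners and opponents of the Th2 factors were tested. At an unadjusted p under 0.05, 7 were higher and 6 lower against Th0, beside 19.4% and 21.8% of all genes. Against Th1, 6 were higher and 5 lower, beside 10.4% and 14.9% of all genes. Tbx21, which encodes the Th1 factor T-bet, was the 1 call in each comparison, with -1.78 ± 0.33 for Th2 against Th0 (limma, adjusted p = 0.0013) and -2.23 ± 0.33 for Th2 against Th1 (limma, adjusted p = 0.000248). Its Th2 level went from 9.70 RPKM at 4 h to 3.50 RPKM at 24 h, and its Th0 level from 11.7 to 41.0 RPKM. Irf4 and Batf, which encode factors that act together in T helper cells, had 0.46 ± 0.11 and 0.60 ± 0.15 against Th0 and stayed under 2-fold. In the other direction Notch1 had -0.78 ± 0.11 and Tcf7 -0.49 ± 0.11 against Th0 (limma, adjusted p = 0.000114 and 0.00498), also under 2-fold. The list's median was 0.07 against Th0 and 0.04 against Th1.

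Of 20 other Th2 effector genes, 11 were tested. At an unadjusted p under 0.05, 6 were higher and 2 lower against Th0, beside 19.4% and 21.8% of all genes. Against Th1, 4 were higher and 2 lower, beside 10.4% and 14.9% of all genes. Ccr4, a chemokine receptor gene of Th2 cells, had 36.1 to 88.9 RPKM in Th2 and 8.79 to 27.9 RPKM in Th0, a difference of 1.99 ± 0.08 (limma, adjusted p = 2.04e-10), and of 2.74 ± 0.08 against Th1 (limma, adjusted p = 1.57e-12). Ccr8, another Th2 chemokine receptor gene, had 1.13 ± 0.18 and Tnfsf11, which encodes RANKL, 1.05 ± 0.16 against Th0 (limma, adjusted p = 0.000305 and 0.000224). These 3 were called higher against Th0 and Ccr4 alone against Th1, and none was called lower. Il1rl1 had 0.10 ± 0.16 against Th0 and 0.07 ± 0.16 against Th1 (limma, adjusted p = 0.651 and 0.822). The list's median was 0.45 against Th0 and 0.07 against Th1.

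Of the 7 neighbours of the cytokine cluster found in the table, 5 were tested. At an unadjusted p under 0.05, 1 was higher and 2 lower against Th0, beside 19.4% and 21.8% of all genes. Against Th1, 1 was higher and 2 lower, beside 10.4% and 14.9% of all genes. Irf1, which encodes an interferon response factor and starts 44907 bases beyond Il5, was the 1 call, with -2.20 ± 0.13 for Th2 against Th0 (limma, adjusted p = 1.41e-08) and -1.96 ± 0.13 for Th2 against Th1 (limma, adjusted p = 4.97e-08). Kif3a, 1014 bases from Il4, had -0.74 ± 0.15 against Th0 and -0.78 ± 0.15 against Th1 (limma, adjusted p = 0.0026 and 0.00255), under 2-fold. Uqcrq had 0.51 ± 0.12 against Th0 and 0.31 ± 0.12 against Th1 (limma, adjusted p = 0.00655 and 0.117). Rad50, which lies inside the cluster, had -0.06 ± 0.09 against Th0 and -0.07 ± 0.09 against Th1 (limma, adjusted p = 0.61 and 0.654).

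As a description over the 20 libraries of the time course, which share time points and the contrast with rest, the genes most like each member by Pearson correlation of log2 levels were as follows. Gata3 was most like Tspan9 (r = 0.929), Il13 like Rel (0.960), Il4 like Nabp1 (0.909), Il10 like Ccl3 (0.865), Il4ra like Rragd (0.941), Maf like Mafk (0.949) and Nfil3 like Cd83 (0.878). The next in rank were Zfp362 and Gsn for Gata3, Nfkb1 and Mfsd2a for Il13, Riok1 and Gadd45b for Il4, Cdca4 and Ccl4 for Il10, Ncoa3 and Sft2d2 for Il4ra, Spty2d1 and Smad3 for Maf, and Atf3 and Atp11a for Nfil3. Among the members themselves, over the 18 cultures, Gata3 and Nfil3 had r = 0.849, Gata3 and Il4ra 0.733, Maf and Bhlhe41 0.706 and Il13 and Il10 0.685. Gata3 and Il4 had r = -0.191 and Gata3 and Il13 r = -0.150.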

How the data were processed

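RNA was sequenced by the authors on an Illumina NextSeq 500, and the deposited values are RPKM per gene. The submitters' notes name BWA and GRCm38, and the counting tool and annotation are not given in the sources used here. Mapped reads per library and whole reads of single genes were recovered from the steps of the RPKM values (tolerance 0.02 reads) for Il5, Il13, Il10, Nfil3 and Il4ra. The 4 other members gave no such step.

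Differences were computed on log2(RPKM + 0.5) with limma 3.58.1 (R 4.3.3) with an intensity trend, over genes averaging 1 RPKM or more, with Benjamini-Hochberg adjustment over all genes tested. Fold changes on this scale understate those of low genes. Time point was a factor in the 18 cultures, whose 6 time points stand in for replicates, so the p-values measure the spread between time points. Nothing gives separate cultures or animals. A call needed an adjusted p under 0.05 and at least 2-fold, or the adjusted p alone for slopes. Single-library intervals are exact at 95%. The scripts were tested on simulated data. The members and gene lists were chosen with earlier results of these data known. The text names all members, every list gene called between Th2 and another culture, at most 4 others per list and the 3 most correlated genes per member. Alternatives changed the pseudocount (0.1 or 1), filter, scaling, intensity trend and libraries included. Sequences and positions come from RefSeq (GRCm38.p6) and GENCODE M21.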

Additional observations from a re-analysis of the deposited data

Results flagged for a closer look

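Gata3 and Il13 are listed because the difference between the Th2 and Th0 cultures changed with time by an interaction test. The Gata3 slope was 0.0585 per hour on the log2 scale and that of Il13 -0.0743 per hour (limma, adjusted p = 0.0414 and 0.0384). The Gata3 value lay between 0.0442 and 0.106 over 16 alternatives and the adjusted p between 0.0208 and 0.266. The Il13 value lay between -0.0980 and 0.0058 and the adjusted p between 0.0345 and 0.904. The cause was not tested.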

How the results depend on the processing

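Of 915 values of single members under an alternative, 832 stayed on the same side of the threshold with the same sign, 39 lost and 21 gained a call, and 23 changed sign, none of them with a call in both settings. Called at an adjusted p and 2-fold under every alternative were Gata3 and Nfil3 for Th2 against Th1, Il4ra for Th1 against Th0, Il4, Il13 and Maf at 4 and 24 h and, for its slope, Nfil3 after actinomycin. The cause was not tested for the values below. Fewer samples or other genes enter where a time point, library or filter changes. Members called for Th2 against Th0 numbered 0 of 8 tested (216 of 10737 genes), and 1 of 8 with pseudocount 0.1 (265 of 10737 genes). They also numbered 1 of 8 with median-of-ratios scaling (198 of 10714 genes), quantile normalization (202 of 10736) and without the 8 h time point (172 of 10727). With 12 to 24 h only it was 1 of 7 (208 of 10556 genes). Members called for Th1 against Th0 numbered 1 of 8 tested (53 of 10737 genes), and 2 of 8 without the 24 h time point (60 of 10752 genes). All genes called for change over time of Th2 against Th0 numbered 553, and 258 with no filter, 76 with only the 12 libraries compared, 3035 without the 4 h time point, 303 without the 12 h time point, 246 without the 16 h time point, 84 without the 20 h time point, 152 without the 24 h time point and 81 with 12 to 24 h only. Members called for change over time of Th2 against Th0 numbered 2 of 8 tested, and 0 of 9 with no filter. They numbered 0 of 8 with only the 12 libraries compared, without the 20 h time point and without the 24 h time point. It was 1 of 8 with no intensity trend (438 of 10737 genes) and without the 8 h time point (417 of 10727 genes). It was also 1 of 8 without the 12 h time point and without the 16 h time point. All genes called for change over time of Th2 against Th1 numbered 117, and 68 with no filter, 358 with only the 12 libraries compared, 363 without the 4 h time point, 513 without the 8 h time point, 52 without the 12 h time point, 46 without the 16 h time point, 22 without the 20 h time point and 24 without the 24 h time point. All genes called for 4 h against resting numbered 1152, and 646 where genes had to average 5 RPKM. Members called for 24 h against resting numbered 3 of 7 tested (3280 of 10897 genes), and 5 of 9 with no filter (3888 of 17830 genes). They numbered 5 of 8 with quantile normalization (3450 of 10889 genes) and 5 of 8 without the Th0 cultures (3412 of 10918 genes). All genes called for slope after actinomycin numbered 2213, and 698 with no filter, 656 without the 0 h library, 1148 without the 1 h library, 3351 without the 2 h library and 536 without the 4 h library. Members called for slope after actinomycin numbered 4 of 7 tested, and 1 of 9 with no filter. They numbered 1 of 7 with quantile normalization (1954 of 10570 genes), 1 of 7 without the 0 h library and 2 of 7 without the 1 h library. Sign changes with 12 to 24 h only were Il4 (Th2 against Th0) -0.205, Il10 (Th2 against Th0) -0.1014, Il13 (Th2 against Th1) -0.1788, Il4 (change over time of Th2 against Th0) 0.0102, Il13 (change over time of Th2 against Th0) 0.0058, Il10 (change over time of Th2 against Th0) 0.0762, Il4 (change over time of Th2 against Th1) 0.0825, Il13 (change over time of Th2 against Th1) 0.0038, Il10 (change over time of Th2 against Th1) 0.0575, Il4ra (change over time of Th2 against Th1) 0.021, Maf (change over time of Th2 against Th1) 0.0054 and Bhlhe41 (Th1 against Th0) -0.0385. Without the 4 h time point the sign changed for Il13 (Th2 against Th1) -0.0311, Il10 (change over time of Th2 against Th0) 0.0088 and Il10 (change over time of Th2 against Th1) 0.0284. Without the 8 h time point the sign changed for Il13 (Th2 against Th1) -0.0037, Il5 (Th1 against Th0) -0.0919 and Il4ra (change over time of Th2 against Th0) -0.0133. Without the 12 h time point the sign changed for Il5 (Th1 against Th0) -0.024. Without the 24 h time point the sign changed for Il4ra (change over time of Th2 against Th0) -0.0201 and Bhlhe41 (Th2 against Th1) -0.0159. Without the Th1 cultures the sign changed for Gata3 (4 h against resting) 0.3179. Without the Th2 cultures the sign changed for Il10 (4 h against resting) -0.0456 and Nfil3 (24 h against resting) -0.0905. Without the 4 h library the sign changed for Il4ra (slope after actinomycin) 0.0747. With pseudocount 1 the sign changed for Bhlhe41 (Th2 against Th1) -0.0064. Without the 20 h time point the sign changed for Bhlhe41 (Th2 against Th1) -0.0836. No paired analysis was possible by replicate number because the cultures carry none, and time point was the factor shared by the fits between cultures. Single time points have no replicate, and whole reads were recovered for 5 of the 9 members.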
